A study of Homo sapiens with 12 samples.

Results

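Splicing removes introns from nuclear RNA, and the genes described here encode its machinery: hnRNP proteins, SR proteins, core snRNP proteins, the SF3 complex, PRPF factors and U2AF. They were the symbols of the authors' deposited table that begin with HNRNP, HNRP, SNRP or U2AF, or with SF3A, SF3B, SFRS, SRSF or PRPF followed by a digit. This rule found 95 of the 34602 symbols in that table. They were 34 hnRNP, 22 SR, 13 snRNP core, 9 SF3, 13 PRPF and 4 U2AF symbols, and none was picked by its score.

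The study used MDA-MB-231, a line derived from a human triple-negative breast cancer with mesenchymal traits, in 3 forms: a mock line and lines stably over-expressing tRNA-Glu(UUC) or tRNA-Arg(CCG). Every form received α-amanitin, which inhibits RNA polymerase II, at a dose of 10 µg/mL and for 0 or 9 h, and 2 arrays were made of each of the 6 combinations. Whether a line was 1 clone or a pool, and whether replicates were separate cultures, is not stated in the labels. The title names mRNA stability as the question, and the authors' deposited table answers it with a single score per gene and tRNA line, relative to control. The formula, scale and log base of the score are not stated, and a positive score is read from the header as more stable in the tRNA line. The table holds no replicate values, p-values or expression levels, so every value below is a description of 1 score, without an error. For the same reason the defining markers of MDA-MB-231 could not be read from it.

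The arrays behind the scores carry probe identifiers that were not matched to genes here, so they give whole-array values only. The 75th percentile of non-normalized intensity ran from 172.4 to 224.55 on the 6 arrays at 0 h and from 134.4 to 153.6 on the 6 arrays at 9 h. The highest, 224.55, was tRNA-Glu 0 h replicate 1, which also lay apart on the second principal component of the authors' processed values, at -31.1 against 0.478 to 11.3 for the other 0 h arrays. Both mock 9 h arrays lay apart on this component as well, at -19.3 and -15.7 against 0.753 to 13.8 for the other 9 h arrays. Mock cells are the control of the scores in both tRNA lines. Over all 47231 probes, the tRNA-Glu change over 9 h, on the log2 scale and less the change in mock cells, had an SD of 0.272. It was 0.331 with replicate 1 as the only tRNA-Glu 0 h array and 0.259 without that array. The tRNA-Arg SD was 0.213 with both 0 h arrays. It was 0.234 with replicate 1 and 0.232 with replicate 2 as the only tRNA-Arg 0 h array. The weight of tRNA-Glu 0 h replicate 1 in single scores cannot be read from the authors' deposited table. No score below could therefore be given without it.

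Most introns are removed by a spliceosome built from U1, U2, U4, U5 and U6 snRNPs, small nuclear RNAs bound by a ring of Sm proteins and by particle-specific proteins. U2AF and SF3 mark the end of the intron and the branch point, and many PRPF proteins join with the U4/U6.U5 particle or act later. SR proteins, which carry arginine-serine tails, mostly promote the use of nearby exons, while many hnRNP proteins coat introns and repress exons. Several SR and hnRNP genes limit their own mRNA by splicing in exons that lead to its decay, which makes mRNA turnover part of their known regulation.

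Scores of the splicing genes were spread widely around 0. For tRNA-Glu the median of the 95 symbols was -0.000876, with 47 above 0 and 48 below, beside a median of 0.00489 over all symbols of the authors' deposited table. For tRNA-Arg it was 0.0199 beside 0.00166, with 54 above 0 and 41 below, per the authors' deposited table. Over all symbols 52.8% were above 0 for tRNA-Glu and 51.0% for tRNA-Arg per the authors' deposited table. The size of the scores differed more than their centre: the median size was 0.142 for tRNA-Glu, against 0.0506 over all symbols, per the authors' deposited table. For tRNA-Arg it was 0.0633 against 0.0432 per the authors' deposited table. A score of 0.2 in size was used as a fixed mark. For tRNA-Glu 17 of the 95 were at 0.2 or higher and 21 at -0.2 or lower, where 5.13% and 4.76% of all symbols of the authors' deposited table were. For tRNA-Arg 7 were at 0.2 or higher and 4 at -0.2 or lower, where 1.61% and 1.71% of all symbols were, per the authors' deposited table. At a mark of 0.3 the counts were 3 high and 14 low for tRNA-Glu, where 2.16% and 2.4% of all symbols were, per the authors' deposited table. For tRNA-Arg they were 0 and 1, where 0.39% and 0.431% were, per the authors' deposited table.

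The authors' deposited table also lists many genes that a breast cell line is not expected to express. Its 387 olfactory receptor symbols, from receptors of the nose, had a median size of 0.0371 for tRNA-Glu, a central 95% of -0.0976 to 0.104, and none past 0.2 in either direction. For tRNA-Arg 1 of them was past it, at 0.223 per the authors' deposited table. Other housekeeping families were wide as well: 20 of 68 translation factor symbols and 5 of 15 RNA polymerase II subunit symbols were past 0.2 in size for tRNA-Glu per the authors' deposited table. That is 29.4% and 33.3%, beside 40% of the splicing symbols and 9.89% of all symbols, per the authors' deposited table. Expression level was not in the table, and its part in these widths was not tested.

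**Figure D1:**
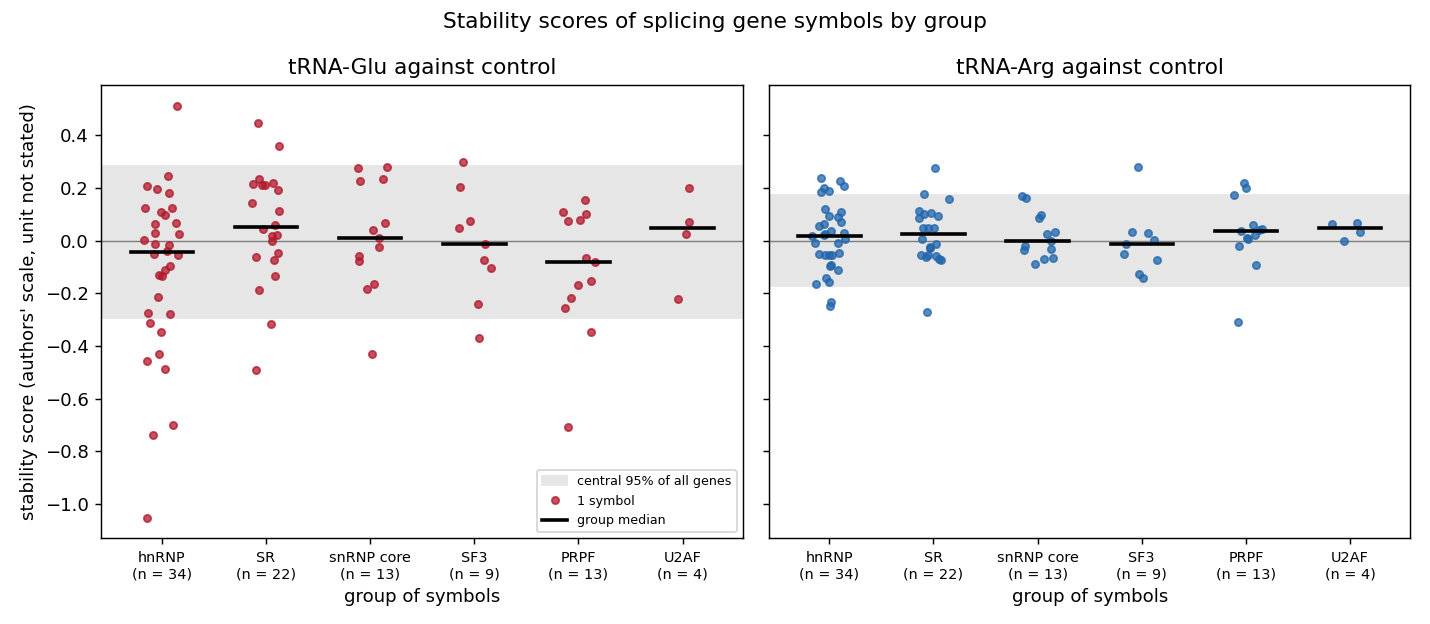
Stability scores of the 95 symbols (y axis, the authors' scale) by group (x axis), for tRNA-Glu on the left and tRNA-Arg on the right. Each point is 1 symbol, the black bar is the group median and the grey band is the central 95% of all symbols (-0.294 to 0.283 for tRNA-Glu). Group medians lie near 0 in both panels, and the tRNA-Glu hnRNP points reach down to -1.05.

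The hnRNP symbols lay more often low than high for tRNA-Glu, with 20 of 34 below 0 per the authors' deposited table. Above 0 were 41.2% of them, where 52.8% of all symbols were, per the authors' deposited table. Of the 34 hnRNP symbols 11 were at -0.2 or lower and 3 at 0.2 or higher, with a median of -0.0437, per the authors' deposited table. Among all symbols 4.76% were that low and 5.13% that high per the authors' deposited table. At a mark of 0.3 there were 8 low and 1 high, where 2.4% and 2.16% of all symbols were, per the authors' deposited table. The median was -0.0177 without pseudogene symbols, and the mean of all 34 was -0.116, per the authors' deposited table. The lowest of all 95 was HNRNPL, which binds CA-rich stretches and controls exon choice, at -1.05 for tRNA-Glu and -0.249 for tRNA-Arg per the authors' deposited table. HNRNPH1, which binds runs of G, had -0.348 for tRNA-Glu and -0.232 for tRNA-Arg per the authors' deposited table. The highest hnRNP symbol, HNRNPUL2, a relative of the scaffold protein HNRNPU, had 0.512 for tRNA-Glu and 0.238 for tRNA-Arg per the authors' deposited table. HNRPLL, the older symbol of HNRNPLL and a relative of HNRNPL, stood at 0.247 for tRNA-Glu and 0.0199 for tRNA-Arg per the authors' deposited table, so these related genes had scores of opposite sign. HNRPC, which binds U-rich intron sequence, had 0.208 for tRNA-Glu and 0.190 for tRNA-Arg per the authors' deposited table. HNRPK, which binds C-rich sequence, had 0.125 for tRNA-Glu and 0.228 for tRNA-Arg per the authors' deposited table.

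The next lowest hnRNP symbols were copies of HNRNPA1, an abundant protein that represses exons. HNRPA1L-2, which RefSeq gives as a synonym of the pseudogene HNRNPA1P10 on chromosome 19, had -0.737 for tRNA-Glu and -0.0943 for tRNA-Arg per the authors' deposited table. The pseudogene symbol HNRPA1P4 had -0.701 for tRNA-Glu and 0.0567 for tRNA-Arg per the authors' deposited table. The parent gene HNRNPA1 on chromosome 12, named after its value was seen, had -0.487 for tRNA-Glu and -0.0555 for tRNA-Arg per the authors' deposited table. HNRNPA1L2, a further near-copy also named after its value was seen, had 0.0299 and 0.0269 per the authors' deposited table. Pseudogenes of HNRNPA1 closely resemble its mRNA, so a probe may not separate them. The low symbols of this family therefore cannot be counted as independent readings, and whether probes separate them was not tested. Without the 3 pseudogene symbols, 9 of 31 hnRNP symbols were at -0.2 or lower and 3 at 0.2 or higher for tRNA-Glu per the authors' deposited table.

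In tRNA-Arg the hnRNP symbols were balanced, with a median of 0.0179 per the authors' deposited table. Of the 34, 3 were at 0.2 or higher and 2 at -0.2 or lower, where 1.61% and 1.71% of all symbols were, per the authors' deposited table. Both lines were scored against the same mock cells, so the scores of a gene in both lines are not independent of each other.

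**Figure D2:**
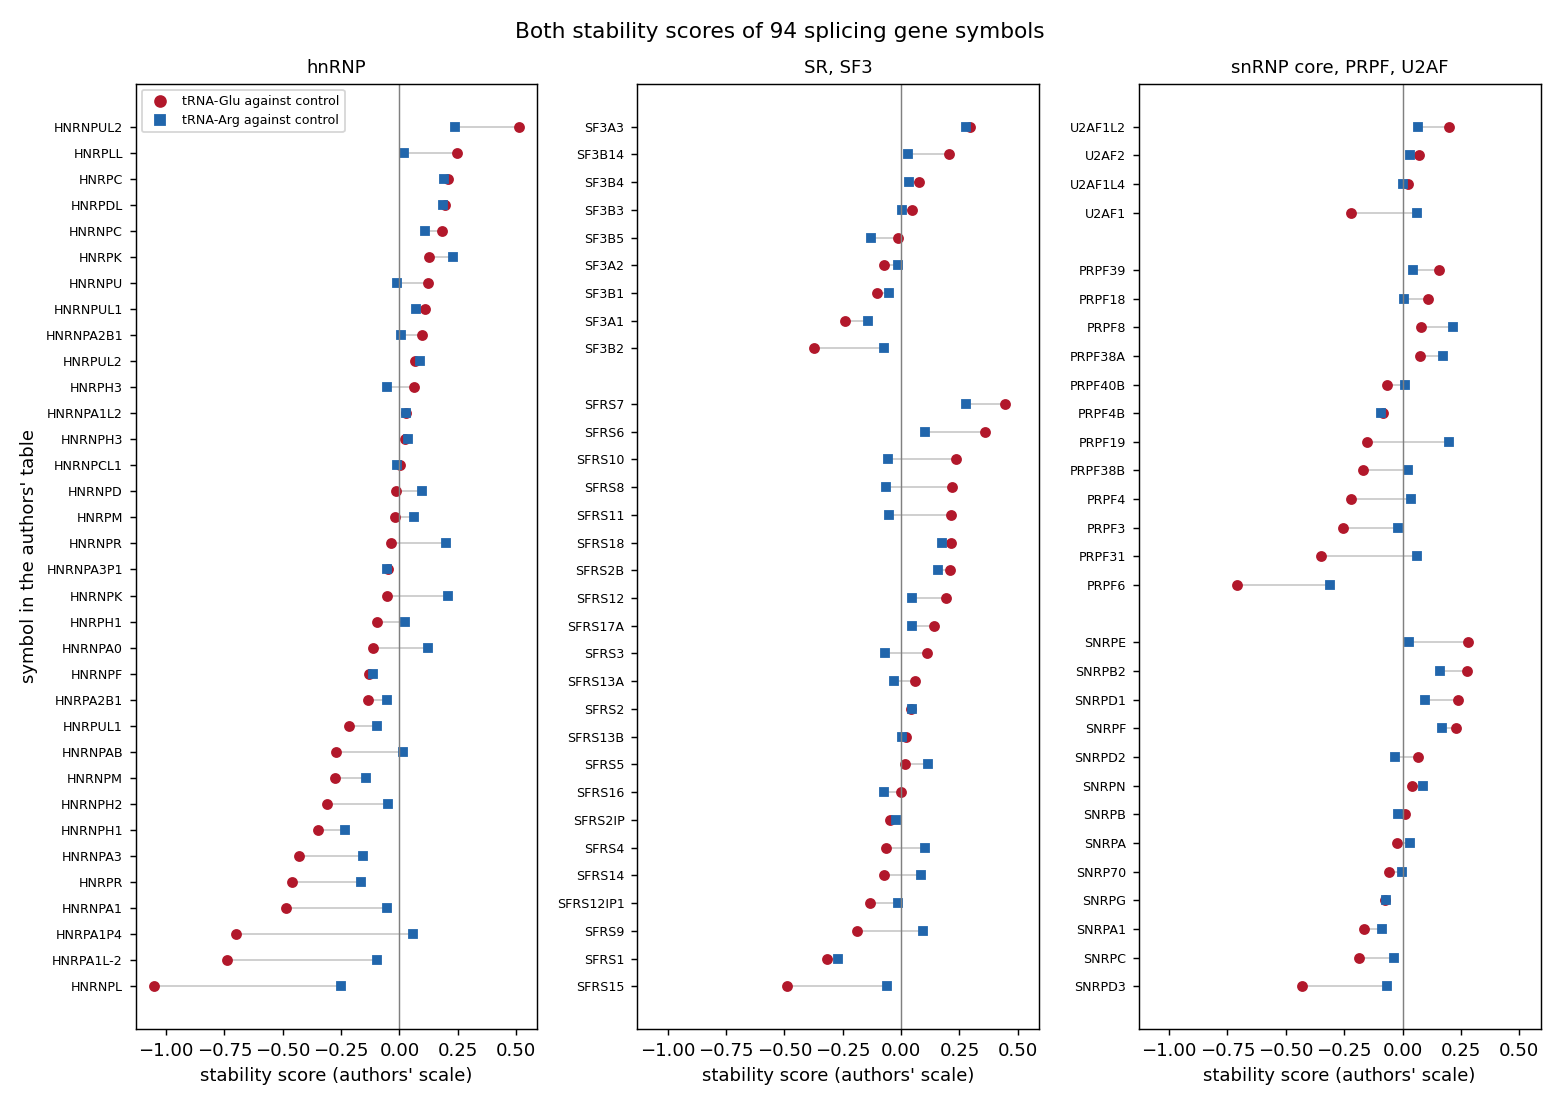
Both stability scores (x axis, the authors' scale) of 94 of the 95 symbols (y axis), with red circles for tRNA-Glu and blue squares for tRNA-Arg, sorted by the tRNA-Glu score within a group. The tRNA-Glu point lies farther from 0 than the tRNA-Arg point for 71 of these 94, beside 57.9% of all symbols, as for HNRNPL (-1.05 and -0.249) and PRPF6 (-0.708 and -0.309).

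For 9 hnRNP genes the authors' deposited table lists both the current HNRNP symbol and the older HNRP symbol, each with its own score. These pairs were singled out after their values were seen, and they show how far apart readings of 1 gene from the same RNA can lie. The median gap within a pair was 0.251 for tRNA-Glu, from 0.0275 to 0.446, and 6 of 9 pairs were 0.2 or more apart per the authors' deposited table. For tRNA-Arg it was 0.149, from 0.0209 to 0.363, with 3 of 9 pairs 0.2 or more apart, per the authors' deposited table. HNRNPC and HNRPC lay close, at 0.181 and 0.208 for tRNA-Glu per the authors' deposited table. HNRNPUL2 and HNRPUL2 were at 0.512 and 0.0660 for tRNA-Glu per the authors' deposited table, so the highest hnRNP score rested on 1 of its 2 readings. HNRNPR had -0.0379 where HNRPR had -0.459, and HNRNPM had -0.278 where HNRPM had -0.0177, for tRNA-Glu per the authors' deposited table. HNRNPH1 had -0.348 where HNRPH1 had -0.0974, with -0.232 and 0.0242 for tRNA-Arg, per the authors' deposited table. The sign differed in 3 of 9 pairs for tRNA-Glu, those of HNRNPA2B1, HNRNPK and HNRNPUL1, and in 6 of 9 for tRNA-Arg, per the authors' deposited table. With the symbols of each gene averaged and pseudogenes kept, 9 of 25 were at -0.2 or lower for tRNA-Glu per the authors' deposited table. Without pseudogenes 7 of 22 were, and 2 were at 0.2 or higher either way, per the authors' deposited table. Among all symbols 4.76% were that low and 5.13% that high per the authors' deposited table.

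Such gaps were not limited to hnRNP genes of the authors' deposited table, where 352 RefSeq genes were matched by exactly 2 symbols. Their median gap was 0.0829 for tRNA-Glu, 21.0% were 0.2 or more apart and 45.7% differed in sign per the authors' deposited table. For tRNA-Arg it was 0.0668, with 12.2% at 0.2 or more apart and 48.3% differing in sign, per the authors' deposited table. Scores within a pair correlated at a Pearson r of 0.257 for tRNA-Glu and 0.163 for tRNA-Arg over these 352 pairs per the authors' deposited table. Some pairs join differently named symbols, such as EVI1 and MDS1 under MECOM, and may not read the same product. The pairs share arrays, and many belong to genes with scores near 0. What each symbol was read from (probes, transcript forms) is not given in the sources used here.

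**Figure D3:**
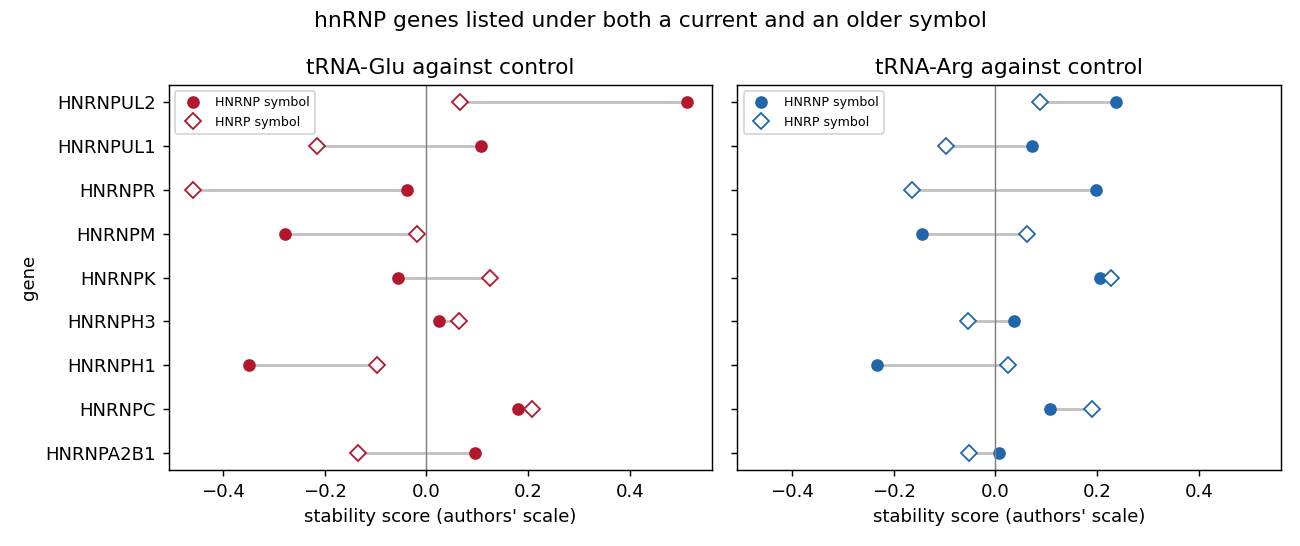
Stability scores (x axis, the authors' scale) of the 9 hnRNP genes listed under 2 symbols (y axis), for tRNA-Glu on the left and tRNA-Arg on the right. Filled circles are the HNRNP symbol and open diamonds the older HNRP symbol. The gap is widest for HNRNPUL2 for tRNA-Glu (0.446) and for HNRNPR for tRNA-Arg (0.363).

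The SR symbols lay more often high than low for tRNA-Glu, with 14 of 22 above 0 per the authors' deposited table. That is 63.6%, where 52.8% of all symbols were above 0, per the authors' deposited table. Of the 22 SR symbols 7 were at 0.2 or higher and 2 at -0.2 or lower, with a median of 0.0516, per the authors' deposited table. Among all symbols 5.13% were that high and 4.76% that low per the authors' deposited table. At a mark of 0.3 there were 2 on each side, where 2.16% and 2.4% of all symbols were, per the authors' deposited table. The larger high count at 0.2 therefore rests on scores between 0.2 and 0.3. SFRS7, now SRSF7, a shuttling protein that also takes part in mRNA export, had 0.447 for tRNA-Glu and 0.276 for tRNA-Arg per the authors' deposited table. SFRS6, now SRSF6, a splicing activator, had 0.358 for tRNA-Glu and 0.102 for tRNA-Arg per the authors' deposited table. SFRS10, now TRA2B, an SR-like activator that binds GAA-rich exon sequence, had 0.235 for tRNA-Glu and -0.0543 for tRNA-Arg per the authors' deposited table. SFRS18, now PNISR, had 0.212 for tRNA-Glu and 0.175 for tRNA-Arg per the authors' deposited table.

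On the low side, SFRS15, now SCAF4, which binds the tail of RNA polymerase II, had -0.490 for tRNA-Glu and -0.0595 for tRNA-Arg per the authors' deposited table. SFRS1, now SRSF1, the best known SR protein and a proto-oncogene, had -0.317 for tRNA-Glu and -0.272 for tRNA-Arg per the authors' deposited table. SFRS9, now SRSF9, had -0.189 for tRNA-Glu and 0.0920 for tRNA-Arg per the authors' deposited table. SFRS16, now CLASRP, which interacts with the CLK kinases that phosphorylate SR proteins, was near 0 for tRNA-Glu (-0.000876) and at -0.0721 for tRNA-Arg per the authors' deposited table. SR proteins spanned both directions, with SRSF1 low and SRSF7 high in each line. Their family name hides different proteins: RefSeq gives an SRSF symbol to 12 of the 22, and the other 10 are relatives or partners. Of the 12, 4 were at 0.2 or higher and 1 at -0.2 or lower, and of the 10, 3 and 1 were, for tRNA-Glu per the authors' deposited table. For tRNA-Arg 1 of all 22 was at 0.2 or higher and 1 at -0.2 or lower per the authors' deposited table. Among all symbols 1.61% were that high and 1.71% that low for tRNA-Arg per the authors' deposited table. The difference in direction between hnRNP and SR symbols for tRNA-Glu was not tested, since genes are not replicates of the cells.

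Core snRNP symbols had a median of 0.0109 for tRNA-Glu per the authors' deposited table. Of the 13, 4 were at 0.2 or higher and 1 at -0.2 or lower, where 5.13% and 4.76% of all symbols were, per the authors' deposited table. At a mark of 0.3 none was high and 1 was low, where 2.16% and 2.4% of all symbols were, per the authors' deposited table. The low symbol was SNRPD3 at both marks, so the larger high count depends on the mark. The Sm proteins form 1 ring with fixed proportions, yet their scores ran from SNRPD3 at -0.430 to SNRPE at 0.279 for tRNA-Glu per the authors' deposited table. SNRPD1, also of the ring, had 0.235 for tRNA-Glu and 0.0956 for tRNA-Arg per the authors' deposited table. SNRPF had 0.227 for tRNA-Glu and 0.167 for tRNA-Arg, the highest tRNA-Arg score of these 13, per the authors' deposited table. SNRPG stood at -0.0770 for tRNA-Glu and -0.0709 for tRNA-Arg per the authors' deposited table. For tRNA-Arg SNRPD3 had -0.0669 and SNRPE 0.0259 per the authors' deposited table, so their order was the same with a smaller gap.

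Of the particle-specific proteins, SNRPB2, which binds U2 RNA, had 0.276 for tRNA-Glu and 0.160 for tRNA-Arg per the authors' deposited table. SNRPA1, its partner on U2, lay on the other side at -0.164 for tRNA-Glu and -0.0898 for tRNA-Arg per the authors' deposited table. SNRPC, a U1 protein that helps to recognise the start of the intron, had -0.185 for tRNA-Glu and -0.0364 for tRNA-Arg per the authors' deposited table. None of the 13 was past 0.2 in size for tRNA-Arg, where 3.32% of all symbols were, per the authors' deposited table. SNRP70, the older symbol of the U1 protein SNRNP70, had -0.0596 where SNRNP70 had -0.239 for tRNA-Glu per the authors' deposited table, a pair named after its values were seen.

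The SF3 complex binds the branch point as part of the U2 snRNP, and its 9 symbols had a median of -0.0145 for tRNA-Glu per the authors' deposited table. Of these 2 were at 0.2 or higher and 2 at -0.2 or lower, where 5.13% and 4.76% of all symbols were, per the authors' deposited table. At a mark of 0.3 there were 0 high and 1 low, where 2.16% and 2.4% of all symbols were, per the authors' deposited table. SF3A1 and SF3A3 are partners in the SF3A trimer and had opposite signs. SF3A1 had -0.241 for tRNA-Glu and -0.143 for tRNA-Arg per the authors' deposited table. SF3A3 had 0.297 for tRNA-Glu and 0.278 for tRNA-Arg, the highest tRNA-Arg score of all 95, per the authors' deposited table. Of the SF3B subunits, SF3B2 was lowest at -0.371 for tRNA-Glu and -0.0728 for tRNA-Arg per the authors' deposited table. SF3B1, the large subunit that is often mutated in blood cancers, had -0.103 for tRNA-Glu and -0.0525 for tRNA-Arg per the authors' deposited table. SF3B14, now SF3B6, which contacts the branch point, had 0.203 for tRNA-Glu and 0.0291 for tRNA-Arg per the authors' deposited table. SF3B4 had 0.0748 and 0.0341, and SF3B5 -0.0145 and -0.128, for tRNA-Glu and tRNA-Arg per the authors' deposited table.

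PRPF symbols leaned low for tRNA-Glu, with a median of -0.0828 per the authors' deposited table. Of the 13, 4 were at -0.2 or lower and none at 0.2 or higher, where 4.76% and 5.13% of all symbols were, per the authors' deposited table. At a mark of 0.3 there were 2 low and none high, where 2.4% and 2.16% of all symbols were, per the authors' deposited table. PRPF6, which bridges U5 and U4/U6, had -0.708 for tRNA-Glu and -0.309 for tRNA-Arg, the lowest tRNA-Arg score of all 95, per the authors' deposited table. PRPF31, a U4/U6 protein known for its link to retinitis pigmentosa, had -0.348 for tRNA-Glu and 0.0598 for tRNA-Arg per the authors' deposited table. PRPF3, also of U4/U6, had -0.254 for tRNA-Glu and -0.0211 for tRNA-Arg per the authors' deposited table. PRPF39, a relative of a U1 protein of yeast, was the highest for tRNA-Glu at 0.155, with 0.0438 for tRNA-Arg, per the authors' deposited table. PRPF18, which acts in the second step of splicing, had 0.107 for tRNA-Glu and 0.00610 for tRNA-Arg per the authors' deposited table. For tRNA-Arg 10 of 13 PRPF symbols were above 0, where 51.0% of all symbols were, per the authors' deposited table. The PRPF median was 0.0370 for tRNA-Arg per the authors' deposited table. Of the 13, 2 were at 0.2 or higher and 1 at -0.2 or lower, where 1.61% and 1.71% of all symbols were, per the authors' deposited table. The 2 high ones were PRPF8 at 0.218 and PRPF19 at 0.20 per the authors' deposited table. PRPF8 holds the RNA at the catalytic centre and PRPF19 is a ubiquitin ligase of the spliceosome, and both were named after their values were seen.

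U2AF recognises the end of the intron through a large and a small subunit. U2AF2, the large one, had 0.0707 for tRNA-Glu and 0.0330 for tRNA-Arg per the authors' deposited table. U2AF1, the small one, had -0.221 for tRNA-Glu and 0.0633 for tRNA-Arg per the authors' deposited table. Of its relatives, U2AF1L4 had 0.0249 for tRNA-Glu and -5.54e-05 for tRNA-Arg per the authors' deposited table. U2AF1L2, an older symbol of the minor-spliceosome factor ZRSR2, had 0.20 for tRNA-Glu where ZRSR2 itself had -0.0881 per the authors' deposited table.

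**Figure D4:**
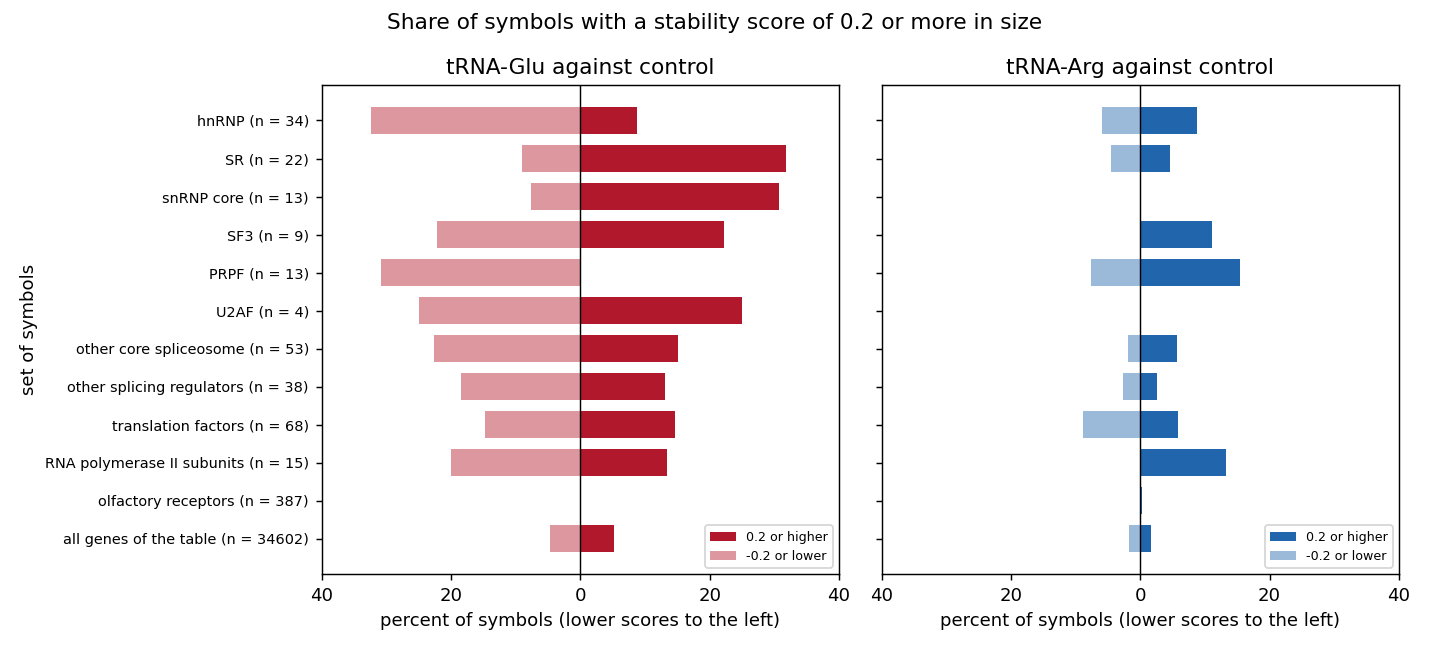
Percent of symbols (x axis) at a stability score of 0.2 or higher (dark bars, to the right) and -0.2 or lower (pale bars, to the left) in each set (y axis, n symbols), for tRNA-Glu and tRNA-Arg. For tRNA-Glu 32.4% of hnRNP symbols lie at -0.2 or lower and 31.8% of SR symbols at 0.2 or higher, while all symbols have 4.76% and 5.13%. At a mark of 0.3 the SR symbols have 2 on each side for tRNA-Glu, and all symbols have 2.16% high and 2.4% low.

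Splicing symbols outside the name rule were read from fixed lists. Of 56 other core spliceosome symbols 53 were listed, and of 42 other regulators 38, per the authors' deposited table. The core list includes SNRNP70 (-0.239) and ZRSR2 (-0.0881 for tRNA-Glu), per the authors' deposited table. Their genes are already members under the older symbols SNRP70 and U2AF1L2. The core list had 8 at 0.2 or higher and 12 at -0.2 or lower for tRNA-Glu, with a median of -0.0188, per the authors' deposited table. The regulators had 5 and 7, with a median of -0.0434, per the authors' deposited table. Among all symbols 5.13% were that high and 4.76% that low for tRNA-Glu per the authors' deposited table. The highest was MAGOH, of the exon junction complex that splicing leaves on mRNA, at 0.642 for tRNA-Glu and 0.253 for tRNA-Arg per the authors' deposited table. BCAS2, of the PRPF19 complex, had 0.372, the spliceosome protein XAB2 0.347 and the SR-related SRRM2 0.332 for tRNA-Glu per the authors' deposited table. The lowest was RALY, an RNA-binding protein related to hnRNP C, at -0.551 for tRNA-Glu and -0.226 for tRNA-Arg per the authors' deposited table. MFAP1 had -0.516, the U2AF-related PUF60 -0.501 and BUD31 -0.449 for tRNA-Glu, all spliceosome proteins, per the authors' deposited table. For tRNA-Arg 4 of both lists' 91 symbols were at 0.2 or higher and 2 at -0.2 or lower per the authors' deposited table. The shares over all symbols were 1.61% and 1.71% per the authors' deposited table.

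Gene size, which the name rule did not use, was set beside the scores. The gene span in RefSeq (GRCh38.p14) and the score had a Spearman rho of 0.0302 for tRNA-Glu and -0.131 for tRNA-Arg over 86 distinct genes per the authors' deposited table. Over 19406 matched genes rho was -0.0290 and -0.0410 per the authors' deposited table. Symbols of the same gene were not averaged here. For the 86 genes the symbol with the lower tRNA-Glu score was kept, and for the 19406 genes the symbol listed first. These are descriptions across genes, which are not independent replicates.

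The start of the mRNA was read because mRNAs that begin with a C followed by pyrimidines (5′ terminal oligopyrimidine, or TOP, mRNAs) are known for shared control of translation and stability. The start was scored as C followed by 4 bases that are each C or T, on the transcribed strand. Of the 86 splicing genes 74 had an entry in the RefSeq promoter table (GRCh38.p14), with 100 annotated starts, and 5 starts (5%) had the run. Over all 35116 starts 4.07% had it, and over 81 starts of cytosolic ribosomal protein genes, the classical TOP mRNAs, 54.3% had it. The genes with the run are shown first, from 20 bases before to 20 bases after the first transcribed base, 5′ to 3′ on the gene's strand, with the 5 scored bases in capitals.
HNRNPA0, chr5:137754344-137754383, minus strand: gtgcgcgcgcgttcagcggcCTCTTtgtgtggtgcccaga
SRSF9, chr12:120469729-120469768, minus strand: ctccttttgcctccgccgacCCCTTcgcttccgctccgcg
SNRPA, chr19:40751183-40751222, plus strand: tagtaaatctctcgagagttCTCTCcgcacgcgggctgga
SNRPD2, chr19:45691934-45691973, minus strand: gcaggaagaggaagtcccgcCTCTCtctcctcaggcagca
SF3A2, chr19:2236804-2236843, plus strand: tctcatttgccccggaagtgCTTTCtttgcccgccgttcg

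The run is at 1 of 3 annotated starts of SNRPD2 and at the single listed start of the other 4 genes. None of these 5 was past 0.2 in size in either line, and for tRNA-Glu they ran from -0.189 (SFRS9) to 0.0678 (SNRPD2) per the authors' deposited table. HNRNPA1, at -0.487 for tRNA-Glu per the authors' deposited table, is among the genes without a promoter entry, so its start was not scored. For contrast, the starts of the lowest symbol, HNRNPL, and of the highest SR and hnRNP symbols, SFRS7 (SRSF7) and HNRNPUL2, follow in the same layout. HNRNPL and SRSF7 have a second annotated start, which also lacks the run.
HNRNPL, chr19:38852328-38852367, minus strand: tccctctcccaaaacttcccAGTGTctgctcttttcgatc
SRSF7, chr2:38751475-38751514, minus strand: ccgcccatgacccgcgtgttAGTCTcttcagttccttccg
HNRNPUL2, chr11:62727438-62727477, minus strand: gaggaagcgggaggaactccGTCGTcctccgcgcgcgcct

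Their first bases are A, A and G, with no C at the start. The 78 member symbols without the run held 32 past 0.2 in size for tRNA-Glu, 16 in each direction, per the authors' deposited table. Among all symbols 9.89% were past it per the authors' deposited table. An annotated start is not the start measured in these cells, so the run is a feature of the reference sequence only.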

How the data were processed

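Illumina expression BeadChips measured RNA from 12 MDA-MB-231 samples. Their 6 groups of 2, by line and time, came from the sample labels. The authors' deposited table gives a stability score per gene and tRNA line against control; its formula is not stated. The submitters' processing notes name lumi without a step or version. Non-normalized intensity and processed intensity of 47231 probes per array were also deposited by the authors, the latter with equal quantiles between arrays. They served only for whole-array values on the log2 scale, because no source used here pairs probes with genes. The planned limma tests of members on the arrays were therefore not run, and marker levels were not checked. The non-normalized table holds 12 further columns named for no sample, which were not used.

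Members were found by symbol. Symbols were matched to RefSeq genes (GRCh38.p14) by symbol or a single synonym: 95 of 95 member symbols, 86 distinct genes, 39 through an older symbol, and 19771 of 34602 symbols in all. Scores were used as deposited. Medians and counts at 0.2 in size were computed beside those over all symbols, and no test was made, since each score is 1 value. Named in each of the hnRNP, SR, snRNP and SF3 groups were the 3 highest and 3 lowest symbols for tRNA-Glu and the 2 highest and 2 lowest for tRNA-Arg. In the PRPF and U2AF groups the 3 highest and 3 lowest for tRNA-Glu were named, except 1 item that is counted in its group but not reported here by itself, and in the other splicing lists the 4 highest and 4 lowest. Members, lists and the fixed score were chosen with earlier results of these data known. The summary functions were tested on simulated data. Alternatives were the mean, averaged symbols, no pseudogenes and a mark of 0.3. The depth behind a score is unknown, and its precision is limited by the number of arrays. The tools were Python 3.11.15, pandas 2.3.3, numpy 2.4.6, scipy 1.17.1 and matplotlib 3.10.9.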

Additional observations from a re-analysis of the deposited data

How the results depend on the processing

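The median tRNA-Glu score of the 95 symbols, -0.000876, was -0.0441 as a mean, -0.00706 with symbols of 1 gene averaged and 0.00718 without pseudogene symbols, which is on the other side of 0. For tRNA-Arg the median of 0.0199 was 0.0181, 0.00848 and 0.0205 under the same alternatives. With a mark of 0.3 the counts for tRNA-Glu went from 17 to 3 at the high end and from 21 to 14 at the low end, and those for tRNA-Arg from 7 to 0 and from 4 to 1. Averaged symbols and leaving out pseudogenes kept these counts within 1.5 times. By group, the 0.3 mark evened out the SR counts for tRNA-Glu, from 7 high and 2 low to 2 and 2. The snRNP counts went from 4 and 1 to 0 and 1, with SNRPD3 the low symbol at both marks. The tRNA-Glu hnRNP median of -0.0437 was -0.0177 without pseudogenes and -0.116 as a mean. Group medians kept their sign except the tRNA-Arg hnRNP median, which was -0.00853 with averaged symbols, and the tRNA-Arg snRNP median, which was 0.0189 as a mean. No paired analysis was possible because the scores carry no replicates, and for the same reason no array could be left out of a score. The array fits with other backgrounds, normalizations, filters, blocks and left-out arrays were not run for these genes, since probes could not be named.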

Other observations

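Proteins that work in 1 particle had scores on both sides of 0; these sets were put together after the values were seen, and nothing was tested. In the exon junction complex MAGOH had 0.642 and EIF4A3 0.270, while their partners RBM8A had -0.257 and CASC3 -0.383, for tRNA-Glu per the authors' deposited table. In the U5 snRNP the helicases SNRNP200 and DDX23 had 0.185 and 0.181 and PRPF8 had 0.0784, while the GTPase EFTUD2 had -0.220, TXNL4A -0.240 and PRPF6 -0.708, for tRNA-Glu per the authors' deposited table. SNRNP40, also of U5, had -0.227, and its older symbol WDR57 had -0.603, for tRNA-Glu per the authors' deposited table. Of the DHX helicases that drive steps of splicing, DHX8 had 0.249, DHX15 0.242, DHX38 0.177 and DHX16 -0.0443 for tRNA-Glu per the authors' deposited table. PHF5A, a small SF3B protein outside the name rule, had 0.368 for tRNA-Arg and 0.211 for tRNA-Glu per the authors' deposited table, a higher tRNA-Arg score than any of the 95 symbols. TRA2A had -0.307 for tRNA-Glu and 0.247 for tRNA-Arg, where its relative TRA2B, listed as SFRS10, had 0.235 and -0.0543, per the authors' deposited table.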
